A study of Mus musculus with 13 samples.

Results

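The change from naive to activated cells was compared between wild-type and Batf-/- CD8+ T cells. For each probe set, the change from naive to day 3 in wild-type cells was subtracted from the same change in Batf-/- cells. This interaction equals the genotype difference at day 3 minus the genotype difference in naive cells, so that a called gene can owe its interaction to either state. All 13 arrays of the study entered, and all 34945 probe sets with a single gene symbol were tested, which cover 18193 genes. An interaction below 0 stands for a weaker rise or a stronger fall without Batf, and an interaction above 0 for a weaker fall or a stronger rise. Changes in opposite directions in the genotypes also give an interaction below or above 0.

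All groups carried the P14 transgene on the C57Bl/6 background, which encodes a T cell receptor and gives most CD8+ T cells a single specificity. The 4 groups were wild-type naive cells at day 0 (2 arrays), Batf-/- naive cells at day 0 (3 arrays), wild-type cells at day 3 of stimulation (4 arrays) and Batf-/- cells at day 3 (4 arrays). Cells were isolated by magnetic negative selection for CD8 and cultured with IL-2 while anti-CD3 and anti-CD28 provided the stimulus. The labels do not say whether the arrays of a group came from separate animals or cultures, nor the age of the mice, so p-values measure only the spread between arrays. The deletion was present before stimulation in all cells, so that naive Batf-/- cells had developed without the factor.

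Batf is a basic leucine zipper protein of the AP-1 family. It forms heterodimers with Jun proteins, binds AP-1 elements and, together with Irf4, composite elements in activated lymphocytes. In CD8+ T cells it is known for its part in effector differentiation and in survival after antigen encounter.

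The arrays had median intensities from 31.5 to 32.5. Batf itself was low in every Batf-/- array, at log2 intensities of 5.60, 6.06 and 5.94 in naive cells and 6.78, 5.56, 5.61 and 5.995 at day 3, against 9.19 and 9.36 and 8.63, 8.80, 8.83 and 9.19 in wild type. Its interaction of 0.53 ± 0.36 (SE, adjusted p = 0.634) did not pass the test. The CD8 T cell markers were high on every array, with list means from 11.659 to 12.167. Batf-/- naive replicate 1 stood apart, with a mean of 7.958 over 11 neutrophil markers against 4.554 to 5.456 on the other 4 naive arrays and 3.861 to 3.983 at day 3. Its monocyte and macrophage mean was 7.249 against 5.957 to 6.366 on those 4 arrays, and its natural killer cell mean 8.217 against 6.508 to 7.626. Its CD8 T cell mean of 11.659 was the lowest of all arrays. An array weight estimated from the data was 0.229 for this array, the lowest of the 13.

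A total of 149 probe sets of 130 genes passed the test of the interaction, at a Benjamini-Hochberg adjusted p below 0.05 in limma. They were 0.426% of those tested. Of these, 106 had an interaction below 0 (0.303%) and 43 above 0 (0.123%), and 77 had an interaction of at least 2-fold. Lower and higher calls here and below refer to this sign, not to the intensity without Batf. The lower ones were 71.1% of the calls, and 59.1% of the 232 calls made with 16 added to each intensity before taking logs. An unadjusted p below 0.05 was reached by 3931 probe sets. By comparison, 14928 probe sets (42.7%) changed between naive and day 3 in wild type and 15092 (43.2%) in Batf-/- cells. The genotype difference passed for 360 probe sets at day 3 (1.03%) and for 268 in naive cells (0.767%). The 4 contrasts share arrays, so that their counts are not independent of each other.

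**Figure D1:**
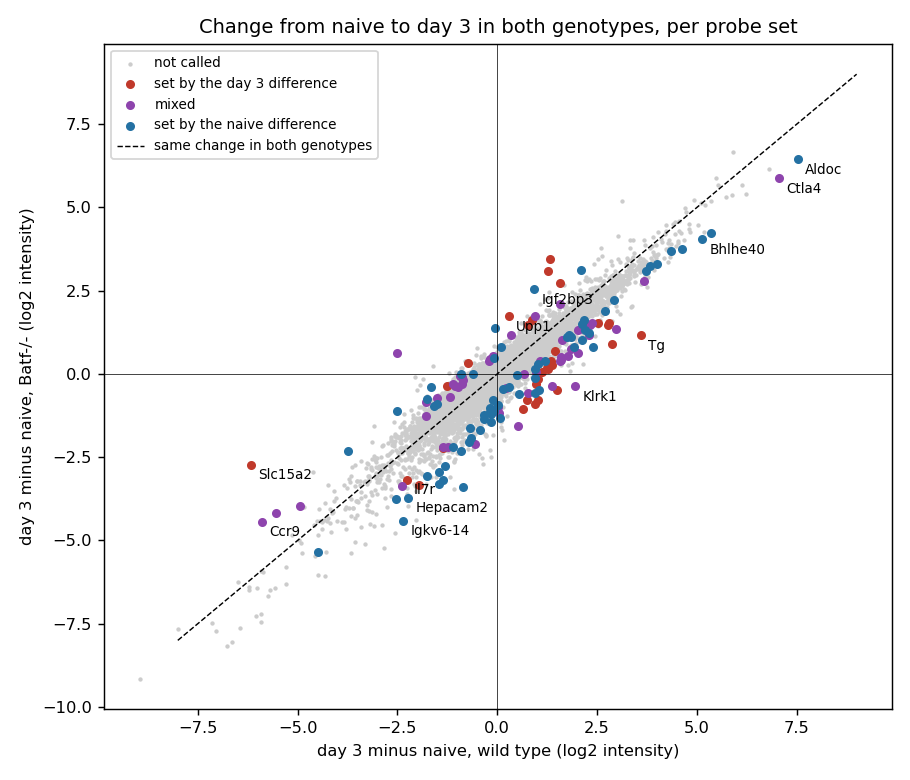
Change in log2 intensity from naive to day 3 in wild-type cells (horizontal) and in Batf-/- cells (vertical), 1 point per probe set, with the 149 called probe sets coloured by class. Called probe sets lie off the dashed line of equal change, and Slc15a2, Ccr9 and Ctla4 changed strongly in both genotypes while differing between them.

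Each called probe set was given a response pattern by the signs of its interaction and of the sum of the changes in both genotypes. By this rule, 64 of the 149 called probe sets had a weaker rise without Batf, 42 a stronger fall, 26 a weaker fall and 17 a stronger rise. These labels include 31 probe sets in which the 2 genotypes moved in opposite directions, and in 13 of these both changes passed their own test. The same rule gave the pattern counts of each class below. To tell the states apart, each called interaction was divided into its parts. The day 3 share is the day 3 genotype difference as a percentage of the interaction. A share of at least 70% was taken as set by the day 3 difference, a share of at most 30% as set by the naive difference, and the rest as mixed. This gave 30 probe sets (23 genes) set by day 3, 69 (64 genes) set by the naive difference and 50 (45 genes) of mixed origin. Ccr9 and Slc25a24 had probe sets in more than 1 class.

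Because the classes were formed from the same differences, the following counts describe them and support nothing. All 30 probe sets set by day 3 passed the test of the genotype difference at day 3 and 0 passed it in naive cells. Of the 69 set by the naive difference, all passed in naive cells and 1, Adi1, also at day 3. Of the 50 mixed ones, 35 passed at day 3, 8 in naive cells, 4 of them in both, and 11 in neither. Whether a share differs from 50% was tested with the sum of both genotype differences, which passed for 455 of all probe sets (1.3%). It passed for 18 of the 30 probe sets set by day 3, for 52 of the 69 set by the naive difference and for 0 of the 50 mixed ones. For 12 and 17 probe sets of the outer classes the assignment is therefore by the size of the share alone.

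The shares formed a continuum. Cnga1 at 27.5% and Ackr4 at 29.5% lay just inside the naive class, and Slc25a24 at 30.8% and Emp1 at 31.0% just outside it. At the other limit, Tcf4 at 66.7% and Cd48 at 69.3% were mixed, and Slc15a2 at 70.1% and Ptpn9 at 71.9% were set by day 3.

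**Figure D2:**
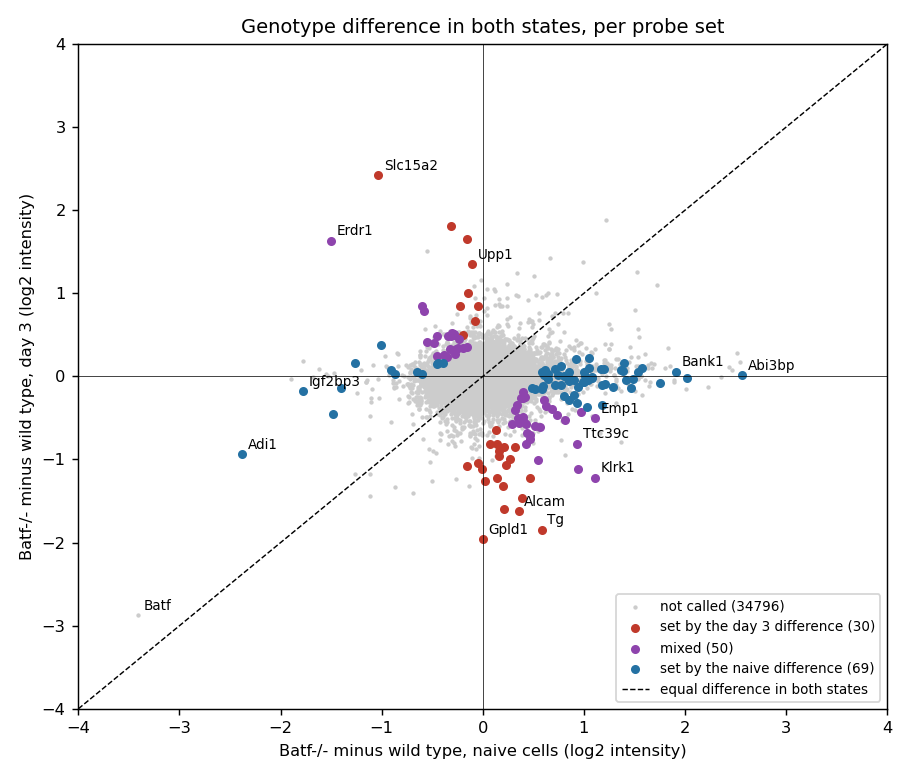
Genotype difference in log2 intensity (Batf-/- minus wild type) in naive cells (horizontal) and at day 3 (vertical), 1 point per probe set. Probe sets set by day 3 (30) lie along the vertical axis, those set by the naive difference (69) along the horizontal axis and mixed ones (50) between them, while Batf lies near the dashed line of equal difference.

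For the genes set by day 3, the larger part of the interaction lay in the genotype difference of activated cells. Of the 30 probe sets, 21 had an interaction below 0 and 9 above 0. By pattern, 16 had a weaker rise, 5 a stronger fall, 6 a stronger rise and 3 a weaker fall. At day 3 the groups did not overlap for any of the 30, against 10.9% of all probe sets tested. Since the class was formed from the same differences, this count describes it and supports nothing. In naive cells the groups did not overlap for 6, among them Slc15a2 and Tg, against 24.7% of all probe sets tested. With the naive and day 3 arrays fitted apart, each with its own spread, the calls of 7 named genes of this class were lost: Pdgfrb, Ctla2b, Upp1, Arhgap5, Rab11fip2, Fhl2 and Ptpn9 (adjusted p from 0.07 to 0.189).

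Alcam, the adhesion molecule that binds CD6, rose in wild type and fell without Batf. Its log2 intensity was 6.63 and 6.17 in wild-type naive and 6.96, 6.37 and 6.94 in Batf-/- naive cells, and 8.18, 7.65, 7.98 and 7.77 in wild-type and 6.39, 6.29, 6.31 and 6.09 in Batf-/- cells at day 3. The naive groups overlapped, and the lowest wild-type value at day 3 lay above every Batf-/- value. The change was 1.50 in wild type and -0.49 without Batf, and the interaction was -1.98 ± 0.25 (SE, adjusted p = 0.00387), a 3.95-fold difference in response. The call came from 4 of its 5 probe sets, all lower and all set by day 3.

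Tnfrsf4, the costimulatory receptor OX40, rose in both genotypes, by 2.53 in wild type and 1.54 in Batf-/- cells. Naive values were 7.03 and 7.15 in wild type and 6.99, 7.12 and 7.03 in Batf-/- cells, and day 3 values 9.73, 9.62, 9.77 and 9.36 (wild type) and 8.60, 8.53, 8.69 and 8.51 (Batf-/-). The naive groups overlapped and the day 3 groups did not. Its interaction was -0.99 ± 0.14 (adjusted p = 0.00786), with a day 3 share of 104.6%. It was the only member of 18 costimulatory molecules to pass.

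Il7r, the receptor chain for IL-7, is high in naive cells and declines on activation. It fell by 2.27 in wild type, from 12.54 and 12.82 to 10.31, 10.45, 10.35 and 10.55, and by 3.18 in Batf-/- cells, from 12.40, 12.60 and 12.56 to 9.59, 9.40, 9.21 and 9.16. Day 3 values of the genotypes did not overlap. The interaction was -0.91 ± 0.17 (adjusted p = 0.0328) and -1.36 ± 0.14 in its second probe set (adjusted p = 0.000693), so that both of its probe sets passed. The call of the first probe set was lost in 9 of the 13 fits without 1 array (adjusted p up to 0.14). Il7r was the only 1 of 20 measured naive and memory genes whose interaction passed.

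Batf3, a close relative of Batf, rose in wild type and did not pass the test without Batf. Its values were 6.28 and 6.49 in wild-type naive cells, 6.41, 6.33 and 6.39 in Batf-/- naive cells, 7.48, 7.52, 7.85 and 7.74 in wild-type cells at day 3 and 6.71, 6.39, 6.57 and 6.46 in Batf-/- cells at day 3. Batf-/- cells at day 3 thus remained near the naive level in measured intensity. The interaction was -1.11 ± 0.15 (adjusted p = 0.0073), with changes of 1.26 in wild type (adjusted p = 9.06e-07) and 0.16 in Batf-/- cells (adjusted p = 0.246).

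The largest interaction set by day 3 below 0 belonged to Tg, the thyroid hormone precursor thyroglobulin. It measured 4.07 and 4.53 in wild-type naive cells, 5.06, 4.62 and 4.97 in Batf-/- naive cells, 7.97, 7.87, 7.74 and 7.97 in wild-type cells at day 3 and 6.48, 5.86, 5.83 and 6.01 in Batf-/- cells at day 3. It rose in both genotypes, by 3.59 in wild type and 1.16 without Batf, and its interaction was -2.43 ± 0.24 (adjusted p = 0.000654). The groups overlapped in neither state, with Batf-/- cells higher when naive and lower at day 3, although the naive difference of 0.58 did not pass (limma, adjusted p = 0.197). Its wild-type naive mean lay among the dimmest 40% of probe sets, below a log2 intensity of 4.72, so that the wild-type rise is a lower bound.

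Gpld1, an enzyme that releases proteins from their glycosylphosphatidylinositol anchors, showed a naive difference of 0.01 and a day 3 difference of -1.96. Its day 3 values were 7.35, 7.26, 7.89 and 6.98 in wild type and 5.78, 5.11, 5.41 and 5.33 in Batf-/- cells, from naive values of 4.75 and 4.26 (wild type) and 4.29, 4.73 and 4.51 (Batf-/-) near the background. The interaction was -1.97 ± 0.31 (adjusted p = 0.014). Without wild-type naive replicate 2 it was -1.72 (adjusted p = 0.0768), which ended the call.

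Ctla2b, which resembles the inhibitory propeptide of cysteine proteases, rose by 2.79 in wild type and 1.52 in Batf-/- cells. Its day 3 values were 10.41, 10.24, 10.32 and 10.48 in wild type against 9.23, 9.04, 9.09 and 9.04 in Batf-/- cells, after naive values of 7.28 and 7.86 (wild type) and 7.74, 7.41 and 7.61 (Batf-/-). Its interaction of -1.28 ± 0.19 (adjusted p = 0.00905) held in all 13 fits that left out 1 array.

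Rtkn2 and the tyrosine phosphatase gene Ptpn13 also rose in wild type. Rtkn2 had an interaction of -1.29 ± 0.25 (adjusted p = 0.0401) and Ptpn13 of -1.17 ± 0.23 (adjusted p = 0.0443), and each call was lost in 10 of the 13 fits without 1 array. The adjusted p then reached 0.129 for Rtkn2 and 0.159 for Ptpn13. Pdgfrb, a growth factor receptor also listed among the stromal markers, had an interaction of -1.52 ± 0.29 (adjusted p = 0.039), lost in 9 of 13 such fits (adjusted p up to 0.142). The brighter probe set of Pdgfrb gave an interaction of 0.01, and none of the 8 stromal and endothelial markers passed by its highest-mean probe set. Gnptab, which marks lysosomal enzymes for sorting, was picked out after its values were seen. All 3 of its probe sets passed, at -1.06, -0.96 and -1.12.

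The opposite direction was led by Slc15a2, a transporter of di- and tripeptides, which fell steeply in wild type and less without Batf. Its values were 10.49 and 9.99 in wild-type naive cells, 8.99, 9.71 and 8.93 in Batf-/- naive cells, 3.78, 4.18, 4.44 and 3.86 in wild-type cells at day 3 and 6.56, 6.51, 6.43 and 6.44 in Batf-/- cells at day 3. The fall was 72.4-fold in wild type, a lower bound since the wild-type day 3 level lay below 4.72, and 6.62-fold in Batf-/- cells. The interaction of 3.45 ± 0.29 (adjusted p = 0.000378) was the largest of all called probe sets. The groups overlapped in neither state, although the naive difference of -1.03 did not pass (limma, adjusted p = 0.0611). The interactions of 2 further probe sets of Slc15a2 were -0.05 and 0.18.

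Upp1, which splits uridine into uracil and ribose-1-phosphate, rose by 1.74 without Batf, while its wild-type change of 0.29 did not pass (adjusted p = 0.262). Its day 3 values were 6.54, 6.46, 6.40 and 6.33 in Batf-/- cells and 5.19, 4.94, 5.13 and 5.07 in wild type, and its naive values 5.10, 4.22 and 4.76 in Batf-/- cells and 5.06 and 4.53 in wild type. The interaction was 1.45 ± 0.26 (adjusted p = 0.0291), lost in 10 of the 13 fits without 1 array (adjusted p up to 0.128). Without Batf-/- naive replicate 1 it was 1.65 (adjusted p = 0.005).

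Morc1, a silencer of transposons in the germ line, rose by 1.57 in wild type and 2.72 without Batf, from naive levels near the background. Fhl2, a LIM domain protein, rose by 0.88 and 1.63. Their interactions were 1.15 ± 0.15 (adjusted p = 0.00581) and 0.75 ± 0.12 (adjusted p = 0.012). The call of Morc1 held in all 13 fits without 1 array, and that of Fhl2 was lost without wild-type naive replicate 1 (0.63, adjusted p = 0.0567).

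Arhgap5 fell by 0.73 in wild type and rose by 0.34 without Batf. Rab11fip2, which links Rab11 to endosome recycling, fell by 1.27 and 0.37. The phosphatase gene Ptpn9 rose by 0.76 and 1.46. Their interactions were 1.07, 0.90 and 0.70, with adjusted p of 0.03, 0.0401 and 0.0497. The calls were lost in 6, 9 and 11 of the 13 fits without 1 array, with adjusted p up to 0.135, 0.135 and 0.207.

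**Figure D3:**
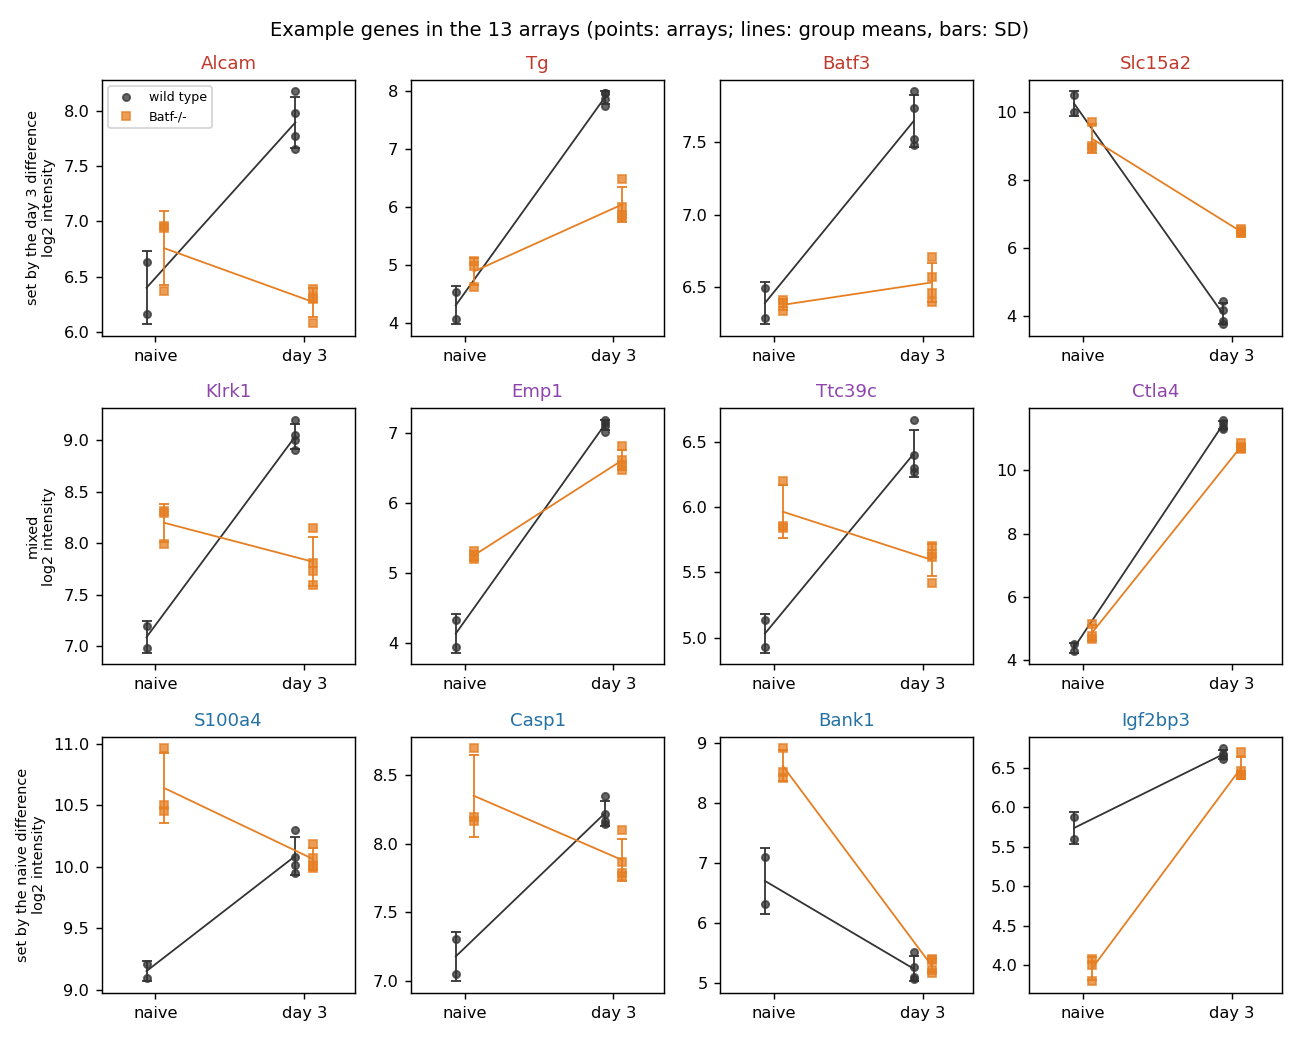
Log2 intensity of 12 genes in the 13 arrays, naive and at day 3, with points for arrays, lines between group means and bars for the SD, for genes set by day 3 (upper row), mixed (middle row) and set by the naive difference (lower row). Each panel has its own scale. In the upper row the genotypes separate at day 3 and in the lower row when naive. All genes of the middle row, Tg and Slc15a2 in the upper row and Casp1 in the lower row separate in both states, with opposite order.

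The AP-1 element TGANTCA, which is its own reverse complement so that a single search covers both strands, was looked for in RefSeq promoter windows of GRCm38.p6. The windows run from 250 bases before to 50 after each gene's start. It was present in 7.81% of all 32851 windows, in 12% of the 25 windows of genes set by day 3, in 12.2% of the 49 of mixed genes and in 4.48% of the 67 of genes set by the naive difference. Windows were found for 18 of the 23 genes set by day 3, and of these Upp1 and Ctla2b had a match. Among the mixed genes, Emp1, Klrk1, As3mt, Rab34 and Glrx had a match. The 200 bases before the start of 3 of these genes, whose responses differ between the genotypes, are shown with the element in capitals. Emp1 was added after its matches were seen. A match is a description of these letters and shows no binding. They lie at chr11:9117808-9118007 (plus strand, element 45 bases before the start) for Upp1, chr13:60897448-60897647 (minus strand, 143 bases before) for Ctla2b and chr6:135362731-135362930 (plus strand, 145 and 25 bases before) for Emp1.
Upp1: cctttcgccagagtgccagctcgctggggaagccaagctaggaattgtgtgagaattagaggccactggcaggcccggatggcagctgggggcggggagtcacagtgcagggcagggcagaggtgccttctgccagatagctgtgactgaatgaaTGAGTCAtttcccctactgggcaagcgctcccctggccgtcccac
Ctla2b: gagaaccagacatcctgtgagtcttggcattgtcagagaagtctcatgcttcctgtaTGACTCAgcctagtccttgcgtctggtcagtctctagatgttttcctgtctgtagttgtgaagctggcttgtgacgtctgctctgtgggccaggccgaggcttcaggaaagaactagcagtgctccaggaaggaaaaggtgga
Emp1: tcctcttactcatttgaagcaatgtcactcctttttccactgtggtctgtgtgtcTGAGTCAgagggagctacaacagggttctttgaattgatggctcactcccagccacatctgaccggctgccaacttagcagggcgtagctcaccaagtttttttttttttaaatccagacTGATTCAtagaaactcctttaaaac

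Mixed genes combined a genotype difference in naive cells with one of opposite sign at day 3. Of the 50 probe sets, 29 had an interaction below 0 and 21 above 0. By pattern, 21 had a weaker rise, 15 a weaker fall, 8 a stronger fall and 6 a stronger rise. The genotype difference changed sign between the states in all 50 by construction of the class, and both differences passed their own tests for Klrk1, Ttc39c, Emp1 and Setdb1. With the states fitted apart, the calls of 12 named genes of this class were lost: Trgv4, As3mt, Mtus2, Pcyt1b, Erdr1, Ccr9, Atp1b1, Trio, Dleu7, Spred2, Myc and Ctla4 (adjusted p from 0.0509 to 0.264).

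Klrk1, which encodes the activating receptor NKG2D, crossed over. It was higher without Batf in naive cells, at 7.99, 8.29 and 8.31 against 6.98 and 7.20, and lower at day 3, at 8.15, 7.81, 7.73 and 7.59 against 8.91, 8.997, 9.05 and 9.20. The groups overlapped in neither state. The naive difference was 1.11 (adjusted p = 0.00366) and the day 3 difference -1.22 (adjusted p = 0.000187). It rose by 1.95 in wild type and fell by 0.38 without Batf, an interaction of -2.32 ± 0.19 (adjusted p = 0.000378). Without Batf-/- naive replicate 1 the interaction was -2.43. Klrk1 is also expressed by natural killer (NK) cells, whose markers averaged 6.508 and 6.705 in wild-type and 7.358 to 8.217 in Batf-/- naive cells and 4.481 to 4.771 at day 3, and their part in the naive difference was not tested.

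Ttc39c, a tetratricopeptide repeat protein, showed the same crossing, with naive values of 5.14 and 4.93 in wild type and 5.84, 5.85 and 6.20 in Batf-/- cells and day 3 values of 6.67, 6.27, 6.40 and 6.30 (wild type) and 5.64, 5.42, 5.70 and 5.62 (Batf-/-). It rose by 1.38 in wild type and fell by 0.37 without Batf. The interaction was -1.75 ± 0.18 (adjusted p = 0.000675).

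Emp1, an epithelial membrane protein, rose by 2.97 in wild type and 1.36 without Batf. Its naive values were 4.33 and 3.94 in wild type and 5.19, 5.32 and 5.23 in Batf-/- cells, and its day 3 values 7.15, 7.01, 7.10 and 7.18 (wild type) and 6.61, 6.81, 6.47 and 6.54 (Batf-/-). Batf-/- cells thus began higher and ended lower, with an interaction of -1.61 ± 0.15 (adjusted p = 0.000384). The wild-type naive level is near the background, so that the wild-type rise is a lower bound.

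Ctla4, the inhibitory receptor that competes with Cd28, rose by 7.05 in wild type and 5.88 without Batf. Its day 3 values were 11.60, 11.38, 11.51 and 11.33 in wild type and 10.86, 10.67, 10.70 and 10.75 in Batf-/- cells, and its naive values 4.52 and 4.29 (wild type) and 5.15, 4.67 and 4.78 (Batf-/-). Wild-type values were higher at day 3 and lower in naive cells, without overlap in either state. The wild-type naive mean lay below 4.72, so that the wild-type rise is a lower bound. The day 3 difference of -0.71 passed (adjusted p = 0.00492) and the naive difference of 0.47 did not (adjusted p = 0.138). The interaction was -1.18 ± 0.17 (adjusted p = 0.00786). It was the only 1 of 14 measured inhibitory receptors and ligands to pass, and the median of that list was -0.37.

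Slc25a24, a mitochondrial carrier of ATP-magnesium and phosphate, rose by 2.03 in wild type and 0.62 in Batf-/- cells and had an interaction of -1.41 ± 0.19 (adjusted p = 0.00575). As3mt, an arsenic methyltransferase, fell by 0.55 and 2.10, with an interaction of -1.55 ± 0.21 (adjusted p = 0.0071). Both calls held in all 13 fits without 1 array. Those of Trgv4 (a gamma T cell receptor segment), Mtus2 and Pcyt1b, at -2.06, -1.34 and -1.25, were lost in 10, 9 and 10 of those fits (adjusted p up to 0.128, 0.187 and 0.129). The highest-mean probe set of Trgv4 gave 0.01.

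Of the mixed genes above 0, Erdr1 had the largest interaction. Its values were 11.82 and 11.19 in wild-type and 10.52, 8.75 and 10.75 in Batf-/- naive cells, and 8.92, 9.11, 8.93 and 9.01 (wild type) and 10.59, 10.60, 10.63 and 10.67 (Batf-/-) at day 3. It fell by 2.52 in wild type, while the change of 0.62 without Batf did not pass (adjusted p = 0.169). The Batf-/- naive arrays spread widely, and the interaction of 3.13 ± 0.52 (adjusted p = 0.0197) was 2.82 (adjusted p = 0.0921) without wild-type naive replicate 1.

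Ccr9, the receptor for the gut chemokine Ccl25, is high in naive CD8+ T cells. It fell by 5.88 in wild type, from 11.83 and 11.42 to 5.72, 5.68, 5.70 and 5.89, and by 4.44 without Batf, from 10.88, 11.37 and 10.84 to 6.68, 6.82, 6.34 and 6.51. The genotypes overlapped in neither state, with Batf-/- cells lower when naive and higher at day 3. The day 3 difference of 0.84 passed (limma, adjusted p = 0.00935) and the naive difference of -0.60 did not (adjusted p = 0.148). The interaction was 1.44 ± 0.22 (adjusted p = 0.012), and 4 of its 5 probe sets passed. The call was kept in all fits without 1 array except that without wild-type naive replicate 1 (1.23, adjusted p = 0.0615). A dimmer probe set of Ccr9, set by the naive difference at 0.99, lost its call without wild-type naive replicate 2 (0.89, adjusted p = 0.0758).

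Myc, the growth regulator, fell by 0.87 in wild type, and its change of -0.17 in Batf-/- cells did not pass (adjusted p = 0.0935). Naive values were 10.36 and 10.31 in wild type and 9.97, 9.88 and 9.80 in Batf-/- cells, and day 3 values 9.54, 9.43, 9.44 and 9.46 (wild type) and 9.53, 9.76, 9.79 and 9.79 (Batf-/-). The naive groups did not overlap and the day 3 groups did. The interaction was 0.70 ± 0.12 (adjusted p = 0.0179). Without 1 array the call was lost for wild-type naive replicate 1 (adjusted p = 0.0731), wild-type naive replicate 2 (0.0581), wild-type day 3 replicate 2 (0.0508) and Batf-/- day 3 replicate 2 (0.0516).

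Other mixed genes above 0 followed. Trio fell by 1.12 and 0.29, with an interaction of 0.83 ± 0.12 (adjusted p = 0.0073), and Setdb1, a histone H3 methyltransferase, had 0.88 ± 0.12 (adjusted p = 0.0073). Both held in all 13 fits without 1 array, although the highest-mean probe set of Setdb1 gave 0.16 (adjusted p = 0.586). That of Trio gave 0.78 and did not pass either (limma, adjusted p = 0.0559). For the called probe set of Setdb1 the Batf-/- naive mean and both day 3 means lay below 4.72, so that its differences were measured near the background. Atp1b1, a sodium pump subunit, and Dleu7 had interactions of 0.94 and 0.82, and both calls were lost without wild-type naive replicate 2 (adjusted p = 0.0571 and 0.0831). The meiotic cohesin gene Stag3 and Spred2, an inhibitor of Ras signalling, had interactions of 0.80 and 0.80. Their calls were each lost in 10 of the 13 fits (adjusted p up to 0.186 and 0.139).

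For the genes set by the naive difference, most of the interaction was present as a genotype difference before stimulation. Of the 69 probe sets, 56 were lower and 13 higher in response: 29 had a stronger fall without Batf, 27 a weaker rise, 8 a weaker fall and 5 a stronger rise. The naive groups did not overlap for any of the 69, against 24.7% of all probe sets tested. Since the class was formed from the same differences, this count describes it and supports nothing. The day 3 groups did not overlap for 14 of the 69, against 10.9% of all. With the states fitted apart, the calls of 17 named genes of this class were lost: Abi3bp, Igkv6-14, Bank1, Sdc1, S100a6, Qpct, Tmem86b, Ppp6r3, Il1r1, Klra8, Tmem176a, Aldoc, Idi1, Fdps, Sqle, Cyp51 and Cd22 (adjusted p from 0.052 to 0.265). Averaged over the 56 lower ones, log2 intensity was 5.945 and 5.989 in wild-type naive cells, 7.011, 6.880 and 7.123 in Batf-/- naive cells, 6.789 to 6.817 in wild-type cells at day 3 and 6.740 to 6.801 in Batf-/- cells at day 3.

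A first group among them rose in wild type and was higher in Batf-/- than in wild-type naive cells. S100a6 and S100a4, calcium-binding proteins of effector and memory T cells, belonged here. S100a6 measured 8.77 and 9.10 in wild-type and 10.09, 10.31 and 10.79 in Batf-/- naive cells and reached 11.32, 11.26, 11.23 and 11.51 (wild type) and 11.25, 11.21, 11.18 and 11.12 (Batf-/-) at day 3. S100a4 measured 9.09 and 9.21 (wild type) and 10.45, 10.51 and 10.96 (Batf-/-) in naive cells, then 9.95, 10.02, 10.08 and 10.30 (wild type) and 10.19, 10.07, 10.01 and 9.99 (Batf-/-). In both genes the naive groups were apart and the day 3 groups overlapped. S100a6 rose by 2.39 in wild type and 0.80 without Batf (interaction -1.60 ± 0.21, adjusted p = 0.00533). S100a4 rose by 0.94 in wild type and fell by 0.58 without Batf (interaction -1.51 ± 0.18, adjusted p = 0.00268).

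Casp1, the caspase that processes interleukin-1, rose by 1.04 in wild type and fell by 0.47 without Batf. Naive values were 7.05 and 7.31 in wild type and 8.70, 8.16 and 8.19 in Batf-/- cells, and day 3 values 8.15, 8.22, 8.17 and 8.35 (wild type) and 8.10, 7.87, 7.77 and 7.79 (Batf-/-). Batf-/- replicate 1 was the highest naive array, and without it the interaction went from -1.52 ± 0.19 (adjusted p = 0.00474) to -1.34 (adjusted p = 0.00123). Casp4, a related caspase picked out after its values were seen, had an interaction of -1.14 ± 0.18 (adjusted p = 0.0157).

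Bhlhe40, a transcriptional repressor induced by T cell receptor signals, rose strongly in both genotypes, by 5.13 in wild type and 4.04 without Batf. Its naive values were 6.35 and 6.03 in wild type and 7.21, 7.30 and 7.31 in Batf-/- cells, and day 3 values were 11.38, 11.45, 11.46 and 10.99 (wild type) and 11.25, 11.27, 11.37 and 11.37 (Batf-/-). The day 3 difference was -0.01 and the naive difference 1.08. The interaction of -1.09 ± 0.17 (adjusted p = 0.0134) was lost without wild-type naive replicate 2 (-0.92, adjusted p = 0.0696).

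Aldoc, a glycolytic aldolase, rose steeply in both genotypes, by 7.53 in wild type and 6.44 without Batf, from 4.78 and 5.19 to 12.47, 12.59, 12.58 and 12.44 in wild type and from 5.81, 5.85 and 6.44 to 12.48, 12.45, 12.49 and 12.48 in Batf-/- cells. Its call was lost in 9 of the 13 fits without 1 array (adjusted p up to 0.153), and it was the only 1 of 16 measured glycolysis genes to pass. Egln3, a prolyl hydroxylase of hypoxia-inducible factors, was picked out after its values were seen and had interactions of -1.11 and -0.87 in its 2 probe sets.

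Of 20 measured sterol synthesis genes 4 passed, all lower and all set by the naive difference, and the median interaction of the list was -0.24. By highest-mean probe set, 76 of all 18193 genes passed below 0 and 24 above, with a median of 0.01. Fdps, which makes farnesyl diphosphate, measured 8.32 and 8.33 in wild-type and 9.16, 8.90 and 8.86 in Batf-/- naive cells and 12.23, 12.30, 12.43 and 12.30 (wild type) and 12.35, 12.24, 12.28 and 12.26 (Batf-/-) at day 3. Cyp51, the lanosterol demethylase, measured 6.22 and 6.03 (wild type) and 6.75, 7.003 and 6.94 (Batf-/-), then 10.46, 10.59, 10.50 and 10.33 (wild type) and 10.54, 10.63, 10.62 and 10.58 (Batf-/-). In both genes the genotypes were apart when naive and overlapped at day 3. Their interactions were -0.68 ± 0.12 and -0.65 ± 0.12 (adjusted p = 0.0297 and 0.0401), and those of Sqle, the squalene epoxidase, and Idi1, the isopentenyl diphosphate isomerase, were -0.63 and -0.58 (adjusted p = 0.037 and 0.0215). Dimmer probe sets gave 0.08 for Fdps, -0.43 and 0.24 for Cyp51 and -0.88 for Idi1, and none of these passed. Without 1 array the calls were lost in 8, 9, 9 and 4 of 13 fits for Fdps, Cyp51, Sqle and Idi1, with adjusted p up to 0.0943, 0.172, 0.129 and 0.0879.

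Another group fell more in Batf-/- cells, to a common low level. It held genes named for B cells, plasma cells and NK cells. Bank1, a scaffold protein of B cells, measured 7.10 and 6.31 in wild-type and 8.52, 8.42 and 8.91 in Batf-/- naive cells and 5.07, 5.27, 5.11 and 5.52 (wild type) and 5.39, 5.22, 5.18 and 5.40 (Batf-/-) at day 3. Klra8, the NK receptor Ly49H, measured 4.59 and 4.02 (wild type) and 5.67, 5.76 and 6.08 (Batf-/-) in naive cells and 2.87, 3.11, 2.72 and 2.66 (wild type) and 2.96, 2.87, 2.995 and 2.76 (Batf-/-) at day 3, where it lay below 4.72 in both genotypes, so that its falls are lower bounds. In both genes all Batf-/- naive arrays lay above both wild-type ones, and the day 3 groups overlapped.

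The interactions were -1.86 ± 0.26 for Bank1, -1.48 ± 0.22 for Klra8, -1.42 ± 0.22 for the B cell receptor inhibitor Cd22, -1.84 ± 0.27 for the plasma cell marker Sdc1 and -2.05 ± 0.32 for the kappa chain segment Igkv6-14, with adjusted p between 0.00731 and 0.0142. Those of Cd22 and Igkv6-14 were lost without wild-type naive replicate 2 (-1.12, adjusted p = 0.0631, and -1.97, adjusted p = 0.065) and that of Sdc1 without wild-type naive replicate 1 (-1.60, adjusted p = 0.0505). The 3 brighter probe sets of Sdc1 gave -0.31, -0.57 and -0.29 and did not pass. For the called probe sets of Sdc1 and Igkv6-14 the day 3 means lay below 4.72 in both genotypes, so that their falls are lower bounds. The wild-type naive mean of Sdc1 also lay below 4.72. In these bulk samples fewer cells of a type and less RNA per cell cannot be told apart.

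Marker lists of other cell types moved in the same way. The NK cell means given with Klrk1 were taken over 5 markers. Over 9 B cell markers the mean was 5.719 and 6.104 against 6.505 to 6.873, and over 5 plasma cell markers 7.569 and 7.659 against 7.984 to 8.416. In all 3 lists the naive groups did not overlap. At day 3 the B and plasma cell means were 4.691 to 4.825 and 4.659 to 5.076, and in all 3 lists the genotypes overlapped. No defining marker was at 0, since these intensities have no zero. By highest-mean probe set, the interaction was below 0 for 5 of 5 NK, 9 of 9 B cell and 4 of 5 plasma cell markers, and 1, 2 and 0 of them passed. Over all 18193 genes it was below 0 for 8528, of which 76 passed. The part of these cell types in the interactions set by the naive difference was not tested.

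Neutrophil markers (11 measured) had interactions below 0 in all 11 and 0 passed, with 1 at an unadjusted p below 0.05. Of all 18193 genes, 8528 lay below 0 and 2056 had an unadjusted p below 0.05. The neutrophil mean was high on Batf-/- naive replicate 1 alone. Without that array 279 probe sets passed, among them 139 of the 149, which were 29 of the 30 set by day 3, 47 of the 50 mixed and 63 of the 69 set by the naive difference. Klra8, Bank1 and Cd22 then had interactions of -1.56, -1.91 and -1.47.

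**Figure D4:**
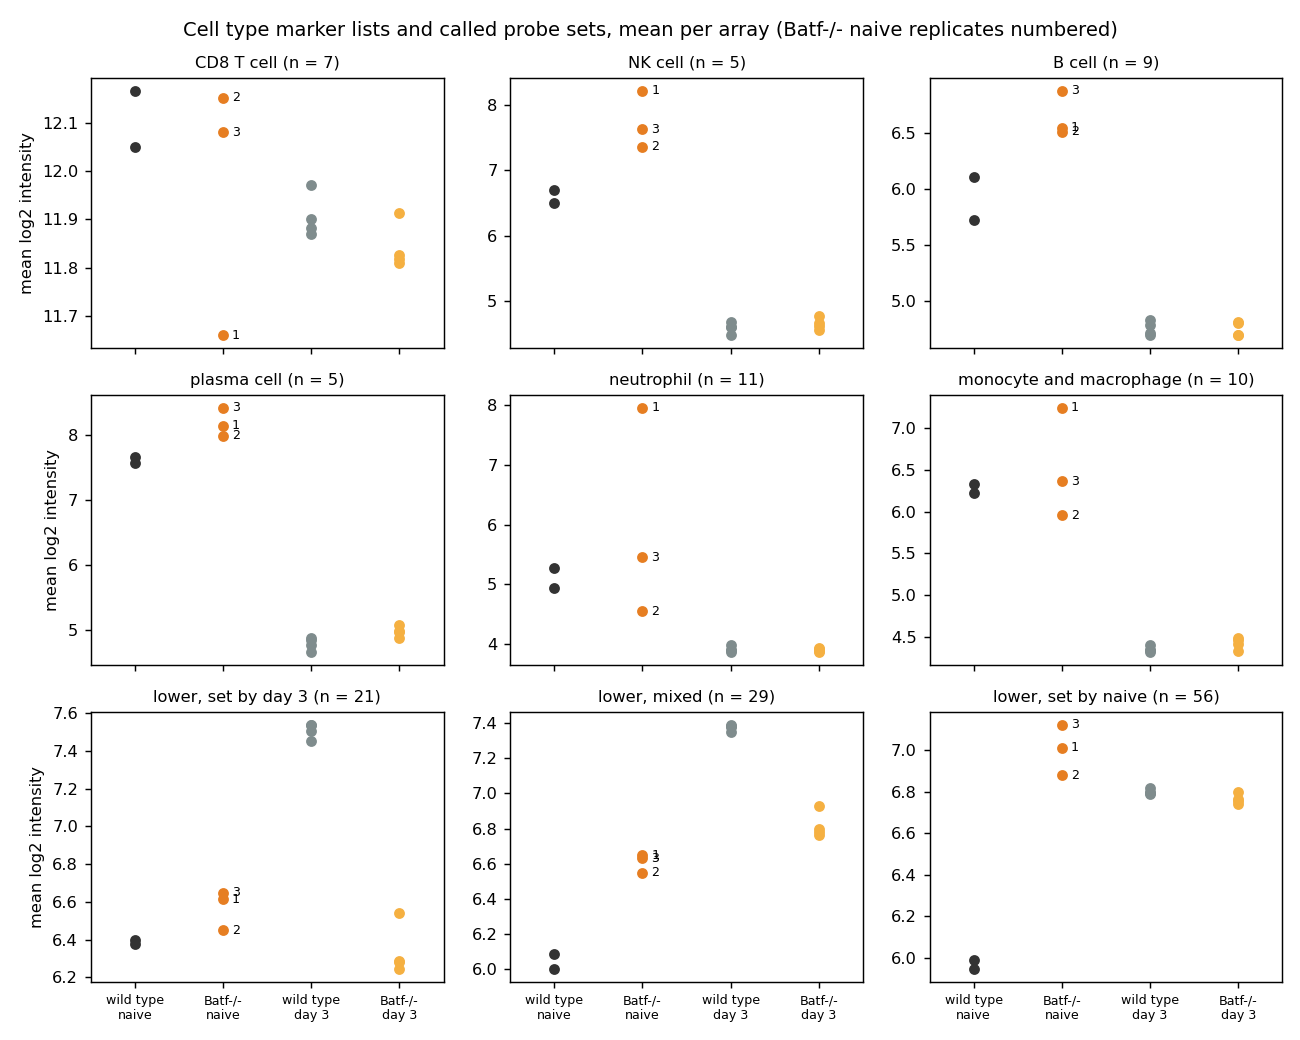
Mean log2 intensity per array of 6 cell type marker lists and of the called probe sets with an interaction below 0 in each class, in the 4 groups, with Batf-/- naive replicates numbered. NK, B and plasma cell means are higher in Batf-/- than in wild-type naive arrays and low in both genotypes at day 3. Batf-/- naive replicate 1 stands apart in the neutrophil list at 7.958 and is also the highest in the monocyte and macrophage list at 7.249.

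The NK receptor genes and the type 17 and innate-like genes had the lowest medians of the program lists. All 11 measured NK receptor genes had an interaction below 0, with a median of -1.06, and 2 (Klrk1 and Klra8) passed. All 10 measured type 17 and innate-like genes also lay below 0, with a median of -0.76, and 3 passed. Of all 18193 genes, 8528 lay below 0 and 76 of these passed. The mean of the 2 gamma delta T cell markers was 6.549 and 6.596 in wild-type naive cells, 6.706 to 6.943 in Batf-/- naive cells and 6.424 to 6.600 at day 3, so that it was also higher in all Batf-/- naive arrays, and its part was not tested. Of the type 17 and innate-like genes, the interleukin-1 receptor Il1r1 measured 5.17 and 5.30 in wild-type and 6.55, 6.35 and 6.89 in Batf-/- naive cells. At day 3 it measured 5.12, 5.04, 5.21 and 4.97 (wild type) and 5.28, 5.23, 5.08 and 5.08 (Batf-/-). It fell by 1.43 without Batf, and its change of -0.15 in wild type did not pass (adjusted p = 0.385). The interactions were -1.28 ± 0.17 for Il1r1 (adjusted p = 0.00533) and -1.30 ± 0.14 for the membrane protein gene Tmem176b (adjusted p = 0.000973), both kept in all 13 fits without 1 array. Its relative Tmem176a had -1.08 ± 0.19 (adjusted p = 0.0318), lost in 8 of the 13 fits (adjusted p up to 0.121).

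Hepacam2 fell by 2.23 in wild type and 3.71 without Batf, to a level below 4.72. It measured 5.08 and 4.87 in wild-type naive, 6.63, 6.29 and 6.74 in Batf-/- naive and 2.58 to 3.08 in all day 3 arrays. The interaction was -1.48 ± 0.19 (adjusted p = 0.00474). Abi3bp measured 4.72, 6.25 and 6.73 in the Batf-/- naive arrays, with replicate 1 the lowest, and 3.11 and 3.56 in the wild-type ones. It fell by 3.41 without Batf, and its change of -0.86 in wild type did not pass (adjusted p = 0.0798). The wild-type naive mean and both day 3 means of Abi3bp lay below 4.72. Its fall without Batf is therefore a lower bound, and its wild-type change was measured near the background. Its interaction of -2.55 ± 0.50 (adjusted p = 0.0448) was -3.14 without Batf-/- naive replicate 1 (adjusted p = 1.74e-05) and was lost in 11 of the 13 fits without 1 array (adjusted p up to 0.164). Ccr1, a receptor for inflammatory chemokines picked out after its values were seen, measured 4.58 and 4.35 in wild-type and 5.92, 5.83 and 5.89 in Batf-/- naive cells and had an interaction of -1.46 ± 0.14 (adjusted p = 0.000384).

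The 13 probe sets set by the naive difference with an interaction above 0 were low in Batf-/- naive cells. Adi1, an enzyme of methionine salvage, measured 8.64 and 8.74 in wild-type and 6.46, 6.10 and 6.37 in Batf-/- naive cells and 8.57, 8.76, 8.56 and 8.68 (wild type) and 7.77, 7.60, 7.67 and 7.76 (Batf-/-) at day 3. It rose by 1.39 without Batf, while its wild-type change of -0.05 did not pass (adjusted p = 0.75). The genotype difference was -2.38 in naive cells and -0.94 at day 3, of the same sign, so that it narrowed and its day 3 share was -65.2%. Igf2bp3, an RNA-binding protein, measured 5.60 and 5.88 (wild type) and 4.01, 4.08 and 3.80 (Batf-/-) in naive cells and 6.65, 6.75, 6.61 and 6.68 (wild type) and 6.70, 6.46, 6.41 and 6.41 (Batf-/-) at day 3. The interactions were 1.44 ± 0.14 and 1.60 ± 0.15 (adjusted p = 0.000384 for both). They were not shared by all probe sets: the highest-mean ones gave 0.36 for Adi1 (adjusted p = 0.284) and 0.01 for Igf2bp3 (adjusted p = 0.988). A further probe set of Adi1, also brighter than the called one, gave -0.68 (limma, adjusted p = 0.102). Its naive difference was 0.83, opposite in sign to that of the called probe set.

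Cnga1, a cyclic nucleotide-gated channel, fell by 2.51 in wild type and 1.12 without Batf, with an interaction of 1.39 ± 0.19 (adjusted p = 0.00685) that held in all 13 fits without 1 array. Qpct, a glutaminyl cyclase, and G2e3, a ubiquitin ligase, had 1.43 and 1.03, and Tmem86b and Ppp6r3, a phosphatase subunit, 1.27 and 0.91. Without 1 array these calls were lost in 10, 8, 10 and 10 of 13 fits (adjusted p up to 0.153, 0.1, 0.13 and 0.156). The highest-mean probe sets of Tmem86b and Ppp6r3 gave -0.12 and -0.03, and that of G2e3 0.25.

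Of the genes called, 10 of 130 (7.69%) lie on the chromosome that carries Batf, against 3.44% of all genes tested that were found in the RefSeq table. By class they were 1 of 23 set by day 3 (Arhgap5), 2 of 45 mixed (Ckb and Ighm) and 7 of 64 set by the naive difference. The latter were Adi1, G2e3, Egln3, Sdc1, Pik3cg, Ap4s1 and Entpd5. The part of sequence linked to the deleted allele was not tested.

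The remaining programs held few or no calls, with medians read beside the 0.01 of all genes, of which 24 passed above and 76 below 0 by their highest-mean probe set. By the same probe set, 8528 of all 18193 genes lay below 0 and 2056 had an unadjusted p below 0.05 in limma. The counts of the lists here and below are to be read beside these. Of 19 AP-1 family and partner genes Batf3 alone passed (median -0.10), and of 21 effector transcription factors Myc passed above and Bhlhe40 below 0 (median -0.16). Of 26 chemokine receptors and homing molecules Ccr9 passed above and Alcam below 0, and of 22 cytokine receptors Il7r and Il1r1 passed below 0. None of 23 cytotoxic effector genes passed, although 10 had an unadjusted p below 0.05, and the largest interaction was that of granzyme A (Gzma, -1.19, adjusted p = 0.184). None of 18 T cell receptor signalling genes passed, with 2 at an unadjusted p below 0.05 and Fyn the largest at 0.45. The same held for 26 early response genes (10 unadjusted), where Egr1 had the largest at 0.82 (adjusted p = 0.0835). Median interactions were -0.21 for the homing, -0.09 for the cytokine receptor, -0.02 for the cytotoxic, 0.09 for the receptor signalling and 0.14 for the early response list, and 0.07 for costimulatory and -0.22 for glycolysis genes.

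No proliferation gene of the lists passed for the interaction. The median change of 24 mitosis genes was 3.15 in wild type and 2.84 without Batf, and their interactions had a median of -0.24, below 0 for 23 of 24. For 25 DNA replication genes the medians were 1.43, 1.25 and -0.13. None of either list reached an unadjusted p below 0.05, and the largest interactions were -0.59 for Aurkb and -0.70 for Cdc6. Ribosome biogenesis genes lay above 0 for 21 of 23, with a median of 0.16, 0 passed and 8 at an unadjusted p below 0.05 (largest Utp20 at 0.50). Type I interferon response genes had a median of 0.38 (0 of 22 passed, 9 unadjusted, largest Ifit1 at 0.89). Interferon-induced GTPases had a median of -0.47 (0 of 9 passed, 5 unadjusted), led by Iigp1 at -1.49 (adjusted p = 0.0846). Unfolded protein response genes lay below 0 for 19 of 20, with a median of -0.23 (0 passed, 3 unadjusted, largest Xbp1 at -0.63).

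Lists without any call and with medians between -0.06 and 0.04 were cytokines and chemokines (0 of 21, 8 unadjusted), respiratory chain (0 of 26, 0 unadjusted), survival and death (0 of 16, 2 unadjusted), DNA methylation and chromatin enzymes (0 of 14, 1 unadjusted), amino acid and one-carbon genes (0 of 15, 2 unadjusted) and purine receptors (0 of 8, 2 unadjusted). Their largest interactions, none of which passed, were -1.57 for Ccl9, 0.17 for Ndufa4, -0.31 for Bad, -0.40 for Uhrf1, -0.53 for Mthfd2 and 1.18 for P2ry14. Of the markers of further cell types, 0 of 7 CD8 T cell, 0 of 10 monocyte, 0 of 6 dendritic cell, 0 of 4 erythroid, 0 of 7 platelet, 0 of 4 CD4 and 0 of 2 gamma delta T cell markers passed. At an unadjusted p below 0.05 there was 1 each among the monocyte, erythroid and platelet markers and 0 in the others.

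Probe sets of a gene did not always move together. Of the 130 genes, 50 had a single probe set and 80 had several. Of the 80, 12 had at least 2 called, 46 had 1 called with the others in the same direction and 22 had another probe set in the opposite direction. Every probe set passed for 8 of the 12, among them Il7r, Gnptab, Slc25a24, Egln3 and Tmem176a.

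The number of calls depended on the arrays. The naive groups hold 2 and 3 arrays and carried 62.5% of the sampling variance of the interaction at equal spread. The median SD within a group was 0.134 in naive and 0.11 in day 3 arrays, and the median SE was 0.145 for the interaction, 0.089 for the day 3 difference and 0.115 for the naive difference. With 1 array left out the total of 149 went from 73 to 451. It was 451 without Batf-/- naive replicate 2, 279 without replicate 1 and 122 without replicate 3. Leaving out either wild-type naive replicate leaves 1 array in that group, which is assumed to vary like the other groups. Those fits lost many of the 149 calls and made others. Without wild-type day 3 replicates 1 to 4 the total was 84, 73, 81 and 112, and without Batf-/- day 3 replicates 1 to 4 it was 151, 73, 80 and 82. A total of 44 probe sets passed in all 13 fits, 12 set by day 3, 12 mixed and 20 set by the naive difference.

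**Figure D5:**
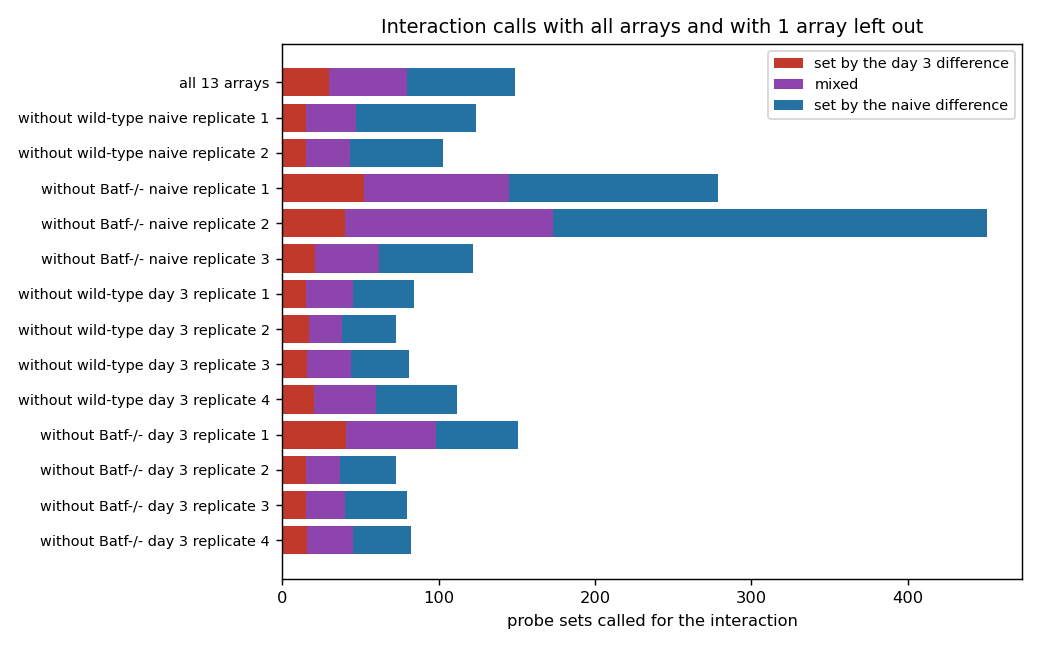
Number of probe sets called for the interaction with all 13 arrays (149) and with each array left out in turn, split by class. The total ranged from 73 to 451, and each class was present in every fit.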

How the data were processed

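RNA of 13 samples was hybridised to Affymetrix mouse arrays. The deposited values are summarised probe set intensity on a linear scale, which the authors made with RMA, per the submitters' processing notes; no version is given in the sources used here. Of 45101 probe sets, 64 controls, 932 of several genes and 9160 of no listed gene were left out of the main test. Of the 34945 tested, 34741 matched the RefSeq gene table.

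The log2 values were fitted with 4 group means in limma 3.58.1 (R 4.3.3; 9 residual and 4.242 prior degrees of freedom), without a block, with Benjamini-Hochberg adjustment over all tested probe sets and a threshold of 0.05. Background signal compresses dim values, so that differences from a group mean below 4.72 are lower bounds. Lists are described by the highest-mean probe set of each gene. The script was tested on simulated data.

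The text names, per class, the 8 largest interactions in each direction among called genes with an established symbol, then Batf, called list members and the largest member of program lists without a call; others are said to be picked after their values were seen. The classes, members and lists were chosen with earlier results of these data known. Alternatives changed the normalization, the log offset, the dim filter, the choice of probe set, the variance model, the array weights, the block, the thresholds and the arrays.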

Additional observations from a re-analysis of the deposited data

Results flagged for a closer look

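A change between naive and day 3 cells that differs between the genotypes was found by a direct test for 149 probe sets, whose values are given above. Outside these comparisons, 10092 probe sets of no listed gene or of several genes were tested in the same way. Of these 13 passed (0.129%), 5 with an interaction above 0 and 8 below 0.

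Among the named genes, 7 of 126 groups of 4 arrays held an array that stood apart from the other 3 by Dixon's test, which chance does in about 1 of 20 groups. Pdgfrb was high in wild-type day 3 replicate 4 at 5.547, and Stag3 in the same array at 5.971. As3mt was low in wild-type day 3 replicate 3 at 5.458. In Batf-/- cells at day 3, Trgv4 was high at 5.774 and Myc low at 9.527 in replicate 1, Atp1b1 was low at 9.081 in replicate 3, and Setdb1 was high at 4.661 in replicate 4.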

How the results depend on the processing

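The 149 calls became 232 with 16 added before taking logs, 552 with array quality weights, 78 with 1 weight per state (0.65 for naive and 1.309 for day 3 arrays), 49 with the states fitted apart, 300 at an adjusted p below 0.10, 42 at 0.01 and 77 with a 2-fold minimum. In the same order, calls set by day 3 (30) became 48, 91, 17, 16, 49 and 11 (the 2-fold minimum left 22), and mixed ones (50) 88, 203, 24, 14, 121, 12 and 19. Calls set by the naive difference (69) became 258, 37, 19, 130, 19 and 36 from the quality weights on, and 96 with 16 added. Mixed calls also became 76 with an intensity trend and 23 with the share cut at 60% and 40%.

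The replicate number as a block gave 48 calls: 12 set by day 3, 23 set by the naive difference and 13 mixed. Of the 48, 47 were among the 149. The labels do not say whether arrays of the same number belong together. Over 16 same-numbered pairs, the correlation of deviations from the group means was -0.239 to 0.048. Such deviations cancel within each small group, so that these values cannot tell whether the numbers pair the arrays.

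With 1 array left out, total calls ran from 73 to 451, those set by day 3 from 15 to 52, those set by the naive difference from 35 to 278 and mixed ones from 21 to 133. Of the 806 such fits of the 62 named probe sets that were called, 572 kept the call, 234 lost it and 0 changed direction. With the states fitted apart 26 of the 62 kept it and 36 lost it. With the highest-mean probe set of a gene, Pdgfrb (0.01), Trgv4 (0.013), Tmem86b (-0.116) and Ppp6r3 (-0.033) changed direction. The number of naive arrays and the dim probe sets limit the precision. The share of lower calls, 71.1%, was 55.6% without wild-type naive replicate 1.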

Other observations

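Several genes of effector CD8+ T cells differed between the genotypes at day 3 while their interaction did not pass; they were picked out after their values were seen. Tbx21, the transcription factor T-bet, measured 8.12, 8.08, 8.13 and 8.28 in wild-type and 7.38, 7.25, 7.29 and 7.11 in Batf-/- cells at day 3. Its day 3 difference of -0.89 passed (limma, adjusted p = 0.00619), and its interaction was -1.04 (adjusted p = 0.0686). Without Batf-/- naive replicate 1, the lowest of the naive arrays at 7.54, the interaction was -1.26 (adjusted p = 0.00287). Cxcr6, a chemokine receptor of tissue-resident T cells, had a day 3 difference of -1.002 and an interaction of -1.10 (adjusted p = 0.102, and 0.0321 without that array).

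Havcr2, the inhibitory receptor Tim-3, had a day 3 difference of -1.23 and an interaction of -0.96 (adjusted p = 0.189). Itgae, the integrin chain CD103, and Ccr2, an inflammatory chemokine receptor, had differences of like sign in both states. For Itgae they were -1.12 in naive cells and -1.44 at day 3, and for Ccr2 1.53 and 1.26, which left interactions of -0.32 and -0.27. In the other direction, the pore-forming protein gene Prf1 had a day 3 difference of 0.61 and an interaction of 0.35 (adjusted p = 0.411), and the cytokine gene Lta 0.84 and 1.05 (adjusted p = 0.0832).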
